A study of Mus musculus with 24 samples.

Results

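Transcripts of 10 genes of the integrated stress response and the unfolded protein response were followed through blood stem cells and platelet-forming progenitors of Jak2-mutant mice. The genes are Ppp1r15a, Ppp1r15b, Atf4, Ddit3, Trib3, Asns, Chac1, Xbp1, Hspa5 and Sesn2. They are defined by their symbols, and all 10 were found among the 24438 genes with a symbol in the deposited count table. All 10 also had enough counts to be tested in every comparison, so no member was lost to the filter on low counts.

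Cells under stress slow protein synthesis by adding phosphate to the translation factor eIF2, which the kinases PERK, GCN2, PKR and HRI do. HRI answers to heme supply in erythroid cells. Translation of the transcription factor ATF4 rises at the same time, and ATF4 drives Ddit3 (encoding CHOP), Trib3, Asns, Chac1 and Sesn2, while Ppp1r15a and Ppp1r15b encode the subunits that bring a phosphatase back to eIF2. In the unfolded protein response, sensors in the endoplasmic reticulum also splice Xbp1 mRNA and raise chaperones such as BiP, the product of Hspa5. Blood stem cells are known for a low rate of protein synthesis. Counts per gene show neither the translation of Atf4 nor the splicing of Xbp1.

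The 5 promoter stretches below, from RefSeq on GRCm38.p6, lie upstream of the members with a motif match and of Trib3. Each reads 5′ to 3′ on the strand of its gene. Capitals mark a match to a motif of the response in the Ppp1r15a, Asns, Chac1 and Hspa5 stretches, and Trib3, shown beside them, has no match. Each stretch is 60 bases long. The Ppp1r15a, Trib3 and Asns stretches end at the base before the gene start, the Chac1 stretch covers 220 to 161 bases before it and the Hspa5 stretch 90 to 31 bases before it.
Ppp1r15a, chr7:45526269-45526328, minus strand: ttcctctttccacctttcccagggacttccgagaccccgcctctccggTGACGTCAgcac
Trib3, chr2:152344061-152344120, minus strand: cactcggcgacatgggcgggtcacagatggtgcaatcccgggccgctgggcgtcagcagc
Asns, chr6:7693210-7693269, minus strand: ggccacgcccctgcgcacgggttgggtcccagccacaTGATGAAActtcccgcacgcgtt
Chac1, chr2:119351022-119351081, plus strand: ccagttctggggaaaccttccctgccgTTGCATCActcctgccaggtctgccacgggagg
Hspa5, chr2:34772000-34772059, plus strand: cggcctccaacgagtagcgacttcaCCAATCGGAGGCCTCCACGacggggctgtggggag

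Motifs were searched on both strands of the 250 bases before each start, and 9 members had such a window. The C/EBP-ATF motif TGATGNAA, the kind ATF4 binds, was found in Asns, 23 to 16 bases before the start, and in Chac1 on the opposite strand, 193 to 186 bases before it. It occurs in 3.45% of 32851 mouse windows of that length. The cAMP response element TGACGTCA, which reads the same on both strands, was found 12 to 5 bases before the start of Ppp1r15a and in 1.55% of all windows. The endoplasmic reticulum stress element, a CCAAT and a CCACG at fixed spacing, was found in Hspa5, 65 to 47 bases before the start, and in 0.113% of all windows. The core of the XBP1 element, TGACGTGG, and the CArG box of serum response factor had no match in a member window and occur in 0.563% and 1.47% of all windows. A match is a run of letters and not a measured site.

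RNA came from 3 populations sorted from bone marrow of C57BL/6N mice: LTHSC, the long-term haematopoietic stem cells, preMegE, progenitors of megakaryocytes and erythroid cells, and MkP, progenitors committed to megakaryocytes. VF mice carry the label Vav1.Cre V617F, E12 mice the label Scl.Cre Exon12, and KI mice the label Scl.Cre mouse Jak2 knock-in. Every mouse received tamoxifen, given on 5 days, and cells were taken 12 weeks after it. Jak2 is the kinase behind many blood cytokine receptors. Vav1 is active across blood cells, and Scl in their stem cells and early progenitors. The driver changes together with the VF genotype, so mutation and driver cannot be told apart in a VF comparison, and KI is the common reference and is not taken to be wild type. Each of the 8 groups has 3 libraries. LTHSC and MkP have VF, E12 and KI groups, preMegE has VF and KI groups, and E12 preMegE were not analysed here. Whether the replicates are separate animals is not stated, so p-values measure only the spread between these libraries. In bulk RNA, fewer cells of a kind and less RNA per cell cannot be told apart.

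Libraries held 10357877 to 29691635 counts. Jak2 averaged 94.3, 41.8 and 55.1 CPM in VF, E12 and KI LTHSC, 52.3 and 32.01 CPM in VF and KI preMegE, and 78.3, 58.3 and 52.1 CPM in VF, E12 and KI MkP, and no Jak2 genotype difference passed the adjusted threshold. LTHSC markers were lower in 14 of 15 cases in preMegE and in 11 of 15 in MkP relative to LTHSC, erythroid markers were higher in 14 of 16 cases in preMegE, and megakaryocyte markers in 12 of 16 in MkP. A scaling factor under 0.8 within the population set apart 4 libraries, replicate 4 of E12 LTHSC (0.754), replicate 1 of KI preMegE (0.589) and replicates 5 (0.585) and 6 (0.530) of KI MkP. Some members differed in these 4: Ddit3 stood at 42.9 to 287 CPM in them and at 20.3 to 67.3 CPM in the other 20, and Atf4 at 98.8 to 161 against 44.2 to 99.4 CPM, with E12 LTHSC 4 inside the range of the other 20 for both genes. Trib3 and Asns lay within that range in all 4. Summed nuclear RNAs were 14571 CPM in preMegE KI 1, 19440 CPM in MkP KI 5 and 9275 CPM in MkP KI 6, but 1779 CPM in LTHSC E12 4, against at most 4548 CPM in the other 20. Their part in the levels of the members was not tested. Summed T and NK cell markers were 4785 and 6457 CPM in MkP KI 5 and MkP KI 6, against 309 CPM in MkP KI 4, with Cd3e, Cd3g and Cd8a at 0 in all 3. LTHSC E12 4 held 28412 CPM of neutrophil and monocyte markers, against 1645 and 1921 CPM in the other E12 LTHSC libraries. Every comparison between groups below was also computed without these 4 libraries, a choice made after seeing the data. That leaves MkP KI 1 library, assumed to vary like the other groups.

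Levels below are CPM, read counts relative to library size, scaled by the TMM method over all 24 libraries. Differences are log2 fold changes with their standard error (SE), and a gene is said to rise or fall where edgeR's quasi-likelihood test gave a Benjamini-Hochberg adjusted p under 0.05 over all genes tested.

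Between genotypes, Ppp1r15a in stem cells was the member that moved, and it was 8.60-fold lower in VF LTHSC than in KI LTHSC. It was the only member of 10 called in VF against KI LTHSC, where 0.0919% of 14152 genes were called. There 2 members and 8.11% of genes had an unadjusted p under 0.05. In E12 against KI LTHSC 0 members were called, against 0.0424% of genes, and 2 members and 13.8% of genes had an unadjusted p under 0.05. In VF against E12 LTHSC 0 members were called, against 0.0353% of genes, and 5 members and 11% of genes had an unadjusted p under 0.05. In VF against KI preMegE the count was 0 members, against 0.0151% of 13231 genes, with 2 members and 6.58% of genes below the unadjusted threshold. In MkP no gene at all was called in VF against KI, E12 against KI or VF against E12, 0% of 13435 genes each, and DESeq2 called 2560, 2838 and 8. Unadjusted p-values were under 0.05 for 26.9%, 29% and 1.24% of genes and for 4, 3 and 0 members. Leaving out MkP KI 4 alone, which keeps only low-factor KI libraries, gave 7 members and 6732 genes called for VF against KI and 7 members and 6856 genes for E12 against KI. The median log2 fold change of the members was -0.43 in VF against KI LTHSC and -0.31 in E12 against KI LTHSC, against 0.00 and 0.02 over all genes tested.

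Between populations, most members moved. In preMegE against LTHSC, Atf4, Ddit3 and Asns rose and Ppp1r15a, Trib3 and Xbp1 fell, 6 of 10 members against 40.7% of 14965 genes. In MkP against LTHSC, Ppp1r15b, Atf4, Ddit3 and Asns rose and the same 3 fell, 7 of 10 members against 34.7% of genes. These 2 comparisons share the LTHSC libraries. In MkP against preMegE 1 member, Ppp1r15a, fell, against 7.54% of genes. Large parts of all genes moved between these populations too, so the counts of members are read only beside these shares. By direction, 3 members rose against 21.3% of genes and 3 fell against 19.4% in preMegE, 4 rose against 17% and 3 fell against 17.7% in MkP relative to LTHSC, and in MkP against preMegE 0 rose against 3.27% and 1 fell against 4.26%. Directions were mixed: the median log2 fold change over members was 0.30 in preMegE and 0.41 in MkP against LTHSC, beside -0.02 and 0.01 over all genes.

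**Figure D1:**
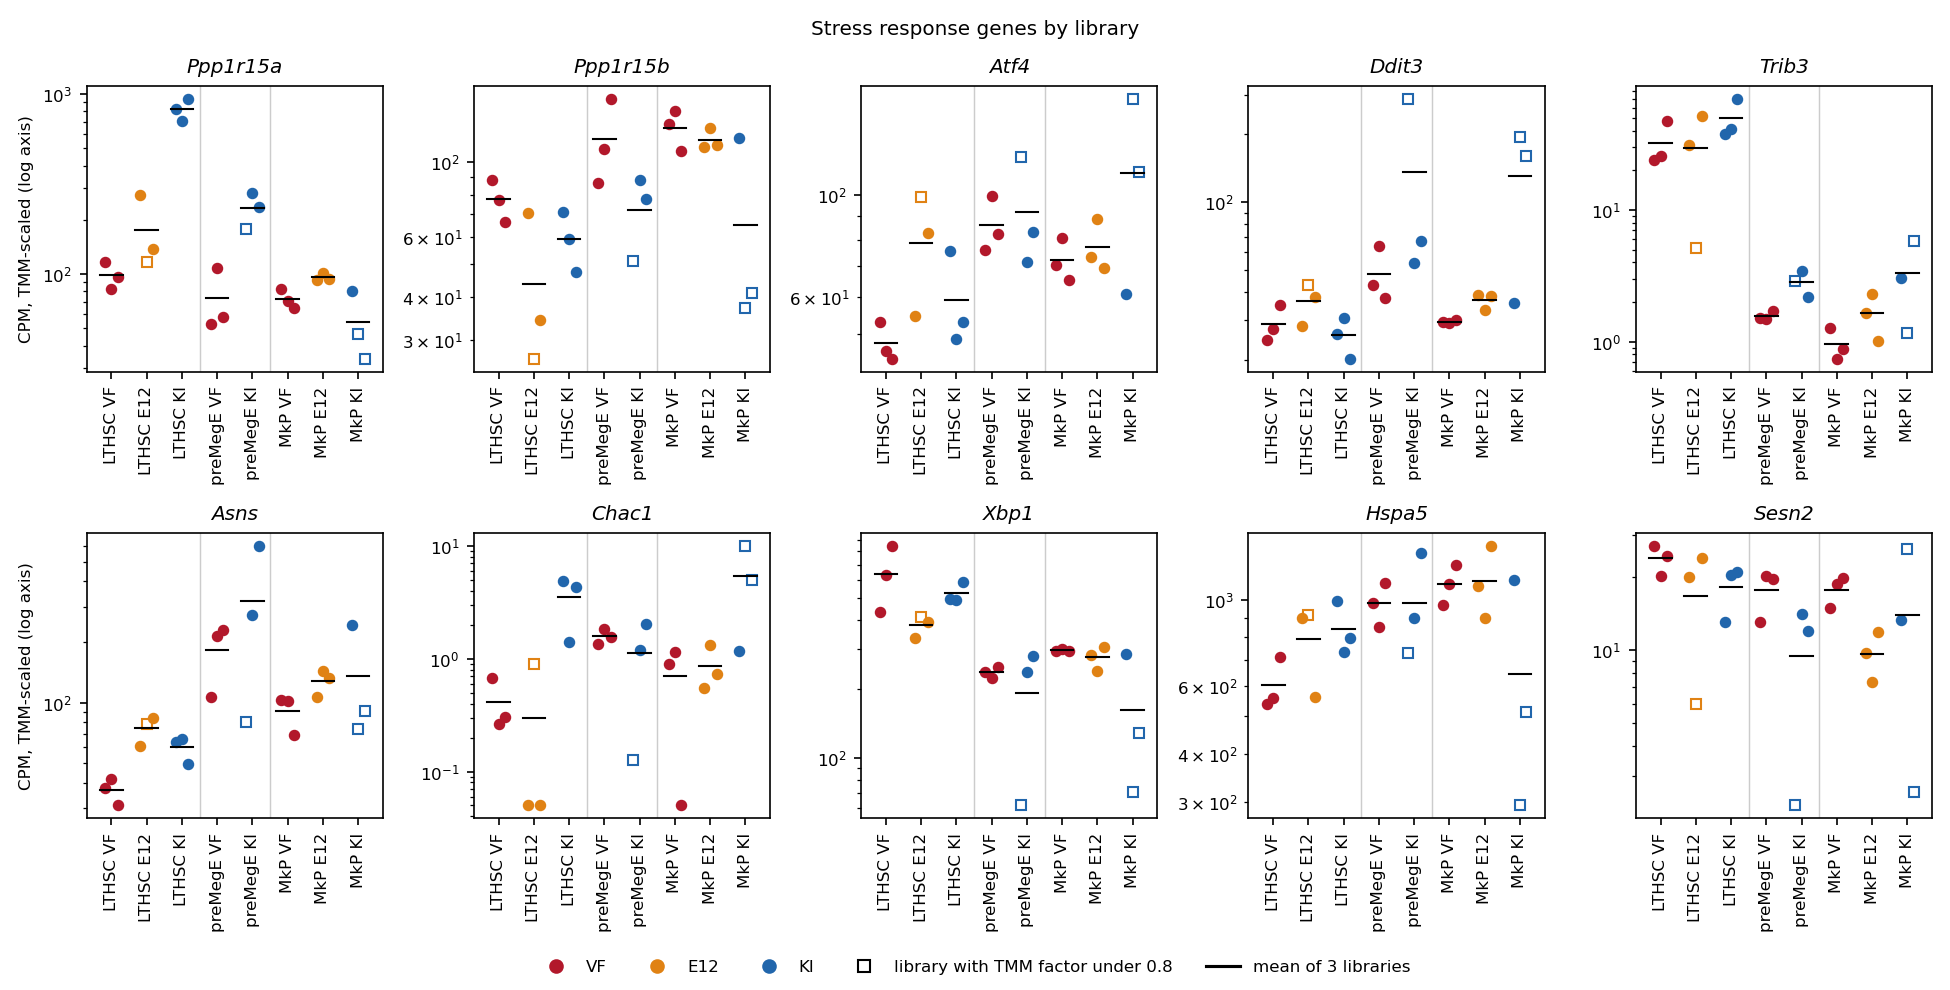
Level of each of the 10 genes in every library, in CPM on a log axis, for VF (red), E12 (orange) and KI (blue) groups of 3 libraries in each population, with the group mean as a bar and the 4 low-factor libraries as open squares. Chac1 values below 0.05 CPM are drawn at 0.05. Ppp1r15a in KI LTHSC lies above all 21 other libraries. Trib3 is at 23.9 CPM or more in LTHSC except E12 LTHSC 4, at 5.18 CPM, and at 5.83 CPM or less in preMegE and MkP.

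Ppp1r15a (Entrez 17872, chromosome 7, 45522917 to 45526268) encodes GADD34, the stress-induced subunit that directs phosphatase to eIF2. In LTHSC it stood at 117, 82.1 and 96.5 CPM in VF libraries, 137, 276 and 117 CPM in E12 libraries and 828, 710 and 937 CPM in KI libraries. The KI stem cells were above every other library of the series, which lay between 33.8 and 283 CPM, and the E12 and VF libraries overlapped. VF LTHSC averaged 98.5 ± 17.4 CPM and KI LTHSC 825 ± 114 CPM (SD, n = 3 each), a fall of log2 -3.10 (SE 0.34, adjusted p = 0.0103 by edgeR). E12 LTHSC averaged 177 ± 86.4 CPM, a difference from KI of log2 -2.25 (SE 0.33, adjusted p = 0.0543 by edgeR) that missed the threshold. Without the low-factor library LTHSC E12 4 it passed, at log2 -2.04 (adjusted p = 0.0416, with 0.125% of genes called), and VF against KI kept its call (adjusted p = 0.00196, with 2.03% of genes called). VF against E12 then still had 0 members called, beside 0.0899% of genes. Leaving out 1 VF or KI LTHSC library at a time kept the VF difference between -3.24 and -2.99. Among these fits, edgeR's adjusted p passed only without KI 2 and otherwise reached up to 0.126.

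In preMegE the same gene stood at 52.8, 109 and 57.9 CPM in VF libraries and 179, 283 and 237 CPM in KI libraries. The groups did not overlap, and the difference of log2 -1.67 (SE 0.43, adjusted p = 0.642 by edgeR) did not pass. Without preMegE KI 1 it passed, at log2 -1.83 (SE 0.35, adjusted p = 0.033, with 0.235% of genes called). Neutrophil and monocyte markers summed to 8977 to 20181 CPM in VF and 3294 to 4528 CPM in KI preMegE, with all 18 detected in both groups. Of the 18, 0 were called with all libraries and 5 rose without preMegE KI 1. Mpo, a granule enzyme gene among them, averaged 8243 CPM in VF and 1182 CPM in KI preMegE. Their part in the Ppp1r15a difference was not tested. In MkP it stood at 82.3, 70.9 and 64.7 CPM in VF libraries, 93.0, 101 and 93.8 CPM in E12 libraries and 80.9, 46.6 and 33.8 CPM in KI libraries. VF and KI overlapped (log2 0.36, SE 0.29, adjusted p = 0.428), and E12 lay above KI without passing the test (log2 0.75, SE 0.29, adjusted p = 0.128). Here KI was not the highest group, unlike in LTHSC and preMegE. Without the low-factor libraries, MkP KI 4 remained, and the VF difference turned to log2 -0.18.

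The genotype difference in Ppp1r15a itself differed between MkP and LTHSC. For VF against KI, the difference of differences was log2 3.50 (SE 0.51, adjusted p = 0.00518), 1 member called against 0.0134% of genes. For E12 against KI it was log2 3.06 (SE 0.51, adjusted p = 0.0486), 1 member called against 0.0334% of genes. Both are positive: VF and E12 lay below KI in LTHSC, and their means lay above the KI mean in MkP. Without the low-factor libraries both missed the threshold, at log2 2.90 (adjusted p = 0.0607) and 2.21 (adjusted p = 0.309), and 0% of genes were called in each. Leaving out single libraries kept the VF value called, at log2 3.25 to 3.92, but ended the E12 call in 9 of 12 cases, at log2 2.81 to 3.53. For VF in preMegE against LTHSC it was log2 1.40 (SE 0.50, adjusted p = 0.906), and 0 members and 0% of genes were called, with 2 members and 4.43% of genes below an unadjusted p of 0.05 and 11 genes called by DESeq2. Without the low-factor libraries it was log2 1.27 (adjusted p = 0.271), with 0.207% of genes called.

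Averaged over genotypes, Ppp1r15a fell in preMegE (log2 -1.13, SE 0.25, adjusted p = 0.00145) and MkP (log2 -1.75, SE 0.21, adjusted p = 1.76e-06) against LTHSC, and in MkP against preMegE (log2 -1.06, SE 0.25, adjusted p = 0.0104). These averages cover unequal steps. The log2 ratio of MkP to LTHSC means was -0.44 in VF mice, -0.88 in E12 mice and -3.94 in KI mice, and the VF libraries of the 2 populations overlapped. For preMegE over LTHSC it was -0.43 in VF mice, again with overlap, and -1.83 in KI mice. For MkP over preMegE it was -0.01 in VF mice, with overlap, and -2.11 in KI mice, where 2 of the 3 MkP libraries have low factors.

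Immediate-early genes, which cells induce within minutes of handling or stimulation, moved with Ppp1r15a between genotypes in LTHSC and preMegE. Their summed level was 1308 to 1462 CPM in VF LTHSC, 1794 to 4031 CPM in E12 LTHSC and 6490 to 11506 CPM in KI LTHSC. In preMegE it was 1208 to 1791 CPM in VF and 2629 to 3692 CPM in KI libraries. In MkP it was 1217 to 1601, 1326 to 1687 and 1494 to 1821 CPM in VF, E12 and KI libraries. The MkP ranges overlapped, with the highest median in KI, where Ppp1r15a had its lowest mean. Of 30 such genes, 6 fell in VF against KI LTHSC with a median log2 fold change of -2.76, and 1 of 26 tested fell in VF against KI preMegE, against 0.0919% and 0.0151% of all genes called. The counts were 16 of 30 and 6 of 26 without the low-factor libraries, against 2.03% and 0.235% of genes. In E12 against KI LTHSC 0 of 30 were called, with a median of -1.87. Malat1, a nuclear RNA, was at 1274 to 1892 CPM in VF, 1586 to 2953 CPM in E12 and 2994 to 4136 CPM in KI LTHSC. In preMegE its mean was also higher in KI (5764 CPM) than in VF (1565 CPM), with overlapping ranges and up to 14007 CPM in KI. In MkP it averaged 9750 CPM in KI, with up to 18982 CPM, against 1179 CPM in VF and 990 CPM in E12. Both maxima belong to low-factor libraries. Ppp1r15a had its lowest group mean in KI MkP. The part of the immediate-early genes and of nuclear RNA in the Ppp1r15a result was not tested.

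**Figure D2:**
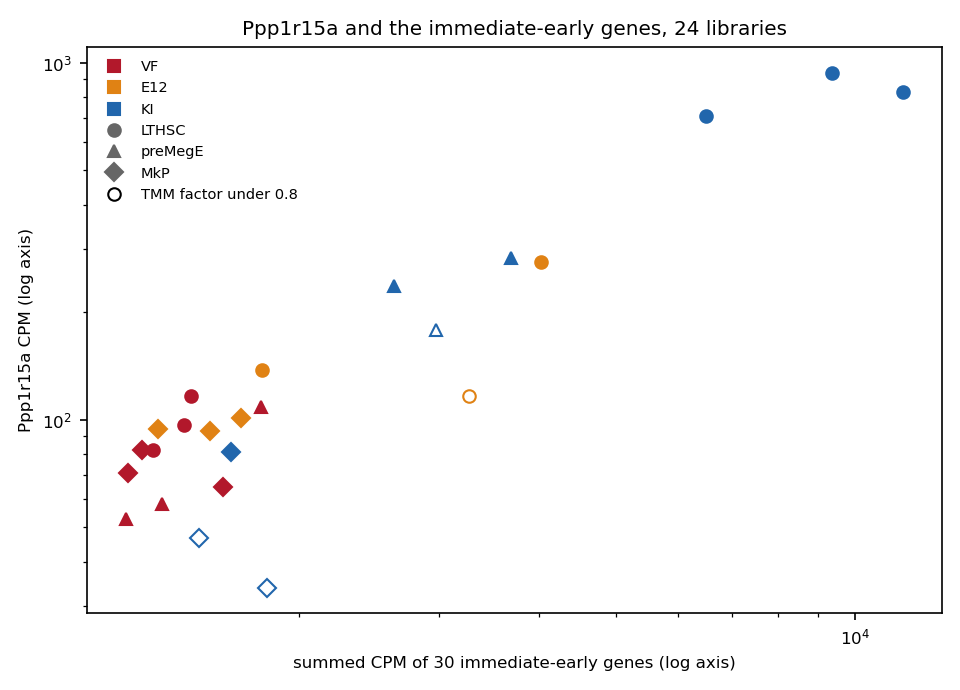
Ppp1r15a level (CPM, log axis) against the summed level of 30 immediate-early genes (CPM, log axis) in the 24 libraries, coloured by genotype and shaped by population, with the 4 low-factor libraries open. The 3 KI LTHSC libraries lie at the top right, at 710 to 937 CPM of Ppp1r15a and 6490 to 11506 CPM of immediate-early genes.

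Ppp1r15b (Entrez 108954, chromosome 1, 133131166 to 133139800) encodes CReP, the constitutive counterpart of GADD34. Its LTHSC levels were 88.6, 77.3 and 66.4 CPM in VF libraries, 34.2, 70.8 and 26.4 CPM in E12 libraries and 70.9, 59.2 and 47.5 CPM in KI libraries, and all 3 groups overlapped. In preMegE it stood at 86.6, 109 and 153 CPM in VF libraries and 51.0, 88.4 and 77.4 CPM in KI libraries. Its MkP levels were 129, 141 and 108 CPM in VF libraries, 110, 126 and 112 CPM in E12 libraries and 117, 37.1 and 41.2 CPM in KI libraries. The 2 low MkP KI values belong to the low-factor libraries, and the KI library left beside them matches the VF and E12 range. Ppp1r15b rose in MkP against LTHSC by log2 0.75 (SE 0.22, adjusted p = 0.0132), and by 0.89 without the low-factor libraries. Per kilobase of gene, the inducible subunit exceeded the constitutive one in every group mean: 42.2 against 13.9 CPM per kilobase in VF LTHSC, 354 against 10.6 in KI LTHSC, 31.1 against 22.5 in VF MkP and 23.1 against 11.6 in KI MkP. The 2 subunits thus differed far more in KI stem cells than in MkP.

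Atf4 (Entrez 11911, chromosome 15, 80255184 to 80257545) encodes the transcription factor at the centre of the response. In LTHSC it stood at 53.1, 45.9 and 44.2 CPM in VF libraries, 82.5, 54.7 and 98.8 CPM in E12 libraries and 75.5, 48.6 and 53.0 CPM in KI libraries. VF lay below E12 without overlap, at log2 -0.75 (SE 0.28), and this missed the threshold (adjusted p = 0.448). Its preMegE levels were 76.0, 99.4 and 82.1 CPM in VF libraries and 121, 71.5 and 82.9 CPM in KI libraries, and in MkP at 70.4, 80.5 and 65.4 CPM in VF, 73.2, 88.6 and 69.4 CPM in E12 and 60.9, 161 and 112 CPM in KI libraries. Genotypes overlapped in both progenitors. Atf4 rose in preMegE against LTHSC by log2 0.74 (SE 0.22, adjusted p = 0.0096), and by 0.56 without the low-factor libraries. The rise in MkP, log2 0.49 (SE 0.18, adjusted p = 0.0342), lost its call without them (log2 0.22, adjusted p = 0.199). The higher MkP KI mean, 111 CPM against 72.1 in VF MkP, also rests on TMM scaling: by total counts alone it was 73.3 against 76.1 CPM.

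Ddit3 (Entrez 13198, chromosome 10, 127290793 to 127296291) encodes CHOP, which turns a lasting response towards cell death. Its LTHSC levels were 24.5, 27.4 and 35.1 CPM in VF libraries, 38.0, 28.4 and 42.9 CPM in E12 libraries and 26.2, 30.7 and 20.3 CPM in KI libraries, with overlap. In preMegE it stood at 42.9, 63.8 and 37.5 CPM in VF libraries and 287, 53.7 and 67.3 CPM in KI libraries. In MkP it stood at 29.4, 29.2 and 30.04 CPM in VF libraries, 38.8, 33.5 and 38.6 CPM in E12 libraries and 35.8, 195 and 161 CPM in KI libraries. The 3 highest values, 287, 195 and 161 CPM, are those of the 3 progenitor libraries with low factors. In MkP the differences from KI, log2 -2.26 for VF (SE 0.52, adjusted p = 0.0755) and -1.95 for E12 (SE 0.51, adjusted p = 0.0616), missed the threshold and shrank to -0.30 and 0.01 without those libraries.

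The rise of Ddit3 in preMegE against LTHSC, log2 1.56 (SE 0.37, adjusted p = 0.0021), kept its call at log2 0.92 without the low-factor libraries, and preMegE lay above LTHSC without overlap in both genotypes. Its rise in MkP against LTHSC, log2 0.80 (SE 0.29, adjusted p = 0.0395), did not keep it (log2 0.17, adjusted p = 0.415). By genotype the MkP to LTHSC log2 ratio of means was 0.03 in VF mice, 0.02 in E12 mice and 2.34 in KI mice. Leaving out single libraries ended the MkP call in 14 of 18 cases.

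Trib3 (Entrez 228775, chromosome 2, 152337425 to 152344060), a pseudokinase that ATF4 and CHOP induce and that feeds back on them, was higher in stem cells within each genotype. In LTHSC it stood at 23.9, 25.9 and 47.5 CPM in VF libraries, 52.0, 31.0 and 5.18 CPM in E12 libraries and 38.1, 41.6 and 69.7 CPM in KI libraries. Its preMegE levels were 1.51, 1.48 and 1.71 CPM in VF libraries and 2.90, 3.43 and 2.20 CPM in KI libraries. Its MkP levels were 1.28, 0.742 and 0.886 CPM in VF libraries, 1.64, 2.32 and 1.01 CPM in E12 libraries and 3.03, 1.17 and 5.83 CPM in KI libraries. Within each genotype every progenitor library was below every LTHSC library, the closest being E12 LTHSC 4. Across genotypes this library, at 5.18 CPM, lay below MkP KI 6, at 5.83 CPM. The fall was log2 -4.25 in preMegE (SE 0.46, adjusted p = 1.21e-06) and -4.36 in MkP (SE 0.38, adjusted p = 2.18e-08) against LTHSC. Genotypes overlapped in LTHSC, and in preMegE VF lay below KI without overlap (log2 -0.87, adjusted p = 0.658), which did not pass. The largest member fall against LTHSC was thus in a target of ATF4, while Atf4 and Ddit3 transcripts did not fall against LTHSC.

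Asns (Entrez 27053, chromosome 6, 7675165 to 7693209) encodes asparagine synthetase, a target of ATF4 when amino acids are short, and went the other way. Its LTHSC levels were 37.7, 41.8 and 30.8 CPM in VF libraries, 84.2, 61.1 and 78.5 CPM in E12 libraries and 63.9, 66.0 and 49.7 CPM in KI libraries. VF stem cells were below all 21 other libraries, which lay between 49.7 and 603 CPM. The VF difference was log2 -0.74 from KI (SE 0.24, adjusted p = 0.383) and -1.04 from E12 (SE 0.24, adjusted p = 0.297), and neither passed. In preMegE it stood at 107, 214 and 229 CPM in VF libraries and 79.6, 274 and 603 CPM in KI libraries, and in MkP at 103, 102 and 68.6 CPM in VF, 107, 144 and 132 CPM in E12 and 244, 73.5 and 90.7 CPM in KI libraries. KI libraries spread widely, and the low ones are again the low-factor libraries. Without these, Asns fell in VF against KI MkP (log2 -1.45, SE 0.22, adjusted p = 0.0141, with 0.414% of genes called), a result that rests on the lone library MkP KI 4, and E12 against KI was at log2 -0.97 (adjusted p = 0.0904, with 0.684% of genes called). In VF against E12 MkP 0 members were then called, beside 0.076% of genes.

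Against LTHSC, Asns rose in preMegE by log2 2.36 (SE 0.36, adjusted p = 5.19e-05) and in MkP by log2 1.09 (SE 0.29, adjusted p = 0.00558). In every genotype the progenitor libraries lay above the LTHSC libraries of that genotype. MkP lay below preMegE (log2 -1.12, SE 0.35, adjusted p = 0.053), which missed the threshold, and at log2 -0.90 without the low-factor libraries it passed (adjusted p = 0.0199, with 17% of genes called).

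Chac1 (Entrez 69065, chromosome 2, 119351242 to 119354326), which encodes a glutathione-degrading enzyme induced through ATF4, was scarce, with group means of up to 5.42 CPM. In LTHSC it stood at 0.674, 0.263 and 0.301 CPM in VF libraries and 4.90, 1.41 and 4.29 CPM in KI libraries. In E12 LTHSC it had 0 counts in 2 libraries and 0.901 CPM in library 4. VF and E12 each lay below KI without overlap, and the SEs were large: log2 -3.11 for VF (adjusted p = 0.653) and -3.54 for E12 (SE 1.54, adjusted p = 0.344). In preMegE it stood between 1.36 and 1.83 CPM in VF and between 0.126 and 2.03 CPM in KI libraries, and in MkP at up to 1.16 CPM in VF, up to 1.32 CPM in E12 and at 1.17, 10.1 and 5.02 CPM in KI libraries. The 2 highest values are low-factor libraries, and by total counts alone KI LTHSC, not KI MkP, had the highest mean. Chac1 passed no test with all libraries. Without the low-factor ones its value in MkP against LTHSC was log2 2.16. Both E12 LTHSC libraries left then held 0 counts, so no E12 ratio could be measured. The KI MkP library left, at 1.17 CPM, lay below all KI LTHSC libraries, and the VF libraries of the 2 populations overlapped.

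Sesn2 (Entrez 230784, chromosome 4, 132492804 to 132510456) encodes a sestrin that senses leucine and restrains growth signalling. It ranged in LTHSC from 20.3 to 27.1 CPM in VF, from 5.95 to 24.04 CPM in E12 and from 13.04 to 21.1 CPM in KI libraries. In preMegE it ranged from 13.01 to 20.2 CPM in VF and from 2.27 to 14.0 CPM in KI libraries, and in MkP from 14.9 to 19.8 in VF, from 7.37 to 11.9 in E12 and from 2.59 to 26.2 CPM in KI libraries. VF MkP lay above E12 MkP without overlap (log2 0.90, SE 0.63, adjusted p = 1.00 by edgeR), and the difference did not pass. Against LTHSC the differences were log2 -0.69 in preMegE (adjusted p = 0.208) and -0.54 in MkP (adjusted p = 0.25), and both passed without the low-factor libraries (log2 -0.53, adjusted p = 0.03, and -0.74, adjusted p = 0.00292).

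Xbp1 (Entrez 22433, chromosome 11, 5520641 to 5525993), whose spliced mRNA encodes a factor for secretory capacity, was highest in stem cells. Its LTHSC levels were 433, 630 and 846 CPM in VF libraries, 392, 335 and 411 CPM in E12 libraries and 496, 489 and 584 CPM in KI libraries. VF lay above E12 without overlap (log2 0.73, SE 0.27, adjusted p = 0.448) and E12 below KI (log2 -0.48, SE 0.27, adjusted p = 0.428), and neither passed. Its preMegE levels were 237, 224 and 250 CPM in VF libraries and 61.8, 238 and 278 CPM in KI libraries, and in MkP at 294, 299 and 292 CPM in VF, 281, 241 and 305 CPM in E12 and 285, 70.9 and 128 CPM in KI libraries. The 3 low values are the low-factor libraries, and the other progenitor libraries lay close together. Xbp1 fell against LTHSC, with a log2 fold change of -1.43 in preMegE (SE 0.31, adjusted p = 0.00129) and -1.09 in MkP (SE 0.25, adjusted p = 0.00241), or -1.28 and -0.85 without the low-factor libraries. The populations did not overlap in any genotype. Markers of plasma and B cells, which use Xbp1 heavily, summed to 216 to 339 CPM in VF and 488 to 2016 CPM in KI preMegE. They summed to 54.2 to 58.7 CPM in VF, 82.8 to 910 CPM in E12 and 70.8 to 89.2 CPM in KI LTHSC, and to 56.5 to 149 CPM in MkP. Their part in the Xbp1 levels was not tested.

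Hspa5 (Entrez 14828, chromosome 2, 34772090 to 34776529), encoding the chaperone BiP, had the highest level per length of the 10 genes in all groups except VF LTHSC, where Xbp1 was higher, and KI LTHSC, where Ppp1r15a was, with 246 to 429 CPM per kilobase in group means of preMegE and MkP. In LTHSC it stood at 539, 557 and 713 CPM in VF libraries, 559, 896 and 916 CPM in E12 libraries and 994, 734 and 795 CPM in KI libraries. VF lay below KI without overlap (log2 -0.51, SE 0.27, adjusted p = 0.691), which did not pass. In preMegE it stood at 981, 850 and 1105 CPM in VF and 731, 895 and 1322 CPM in KI libraries, and in MkP at 969, 1098 and 1228 CPM in VF, 1088, 896 and 1380 CPM in E12 and 1123, 294 and 513 CPM in KI libraries. Genotypes overlapped in both progenitors. Differences from LTHSC of log2 0.46 in preMegE (adjusted p = 0.177) and 0.33 in MkP (adjusted p = 0.264) did not pass, and without the low-factor libraries both did, at 0.49 (adjusted p = 0.0135) and 0.58 (adjusted p = 0.00264).

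The counts were 9 members without the low-factor libraries in preMegE against LTHSC, where 49.8% of genes were called, and 8 in MkP against LTHSC, where 39.2% were. In preMegE 5 rose against 23.5% of genes and 4 fell against 26.3%, and in MkP 4 rose against 18.6% and 4 fell against 20.6%. Chac1 was the member not called in preMegE, and Atf4 and Ddit3 were those not called in MkP. The MkP rises include Chac1, for which the E12 LTHSC libraries left held 0 counts. In MkP against preMegE 0 members rose against 8.36% of genes and 3 fell, Ppp1r15a, Ddit3 and Asns, against 8.61%, with 17% of genes called in either direction.

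**Figure D3:**
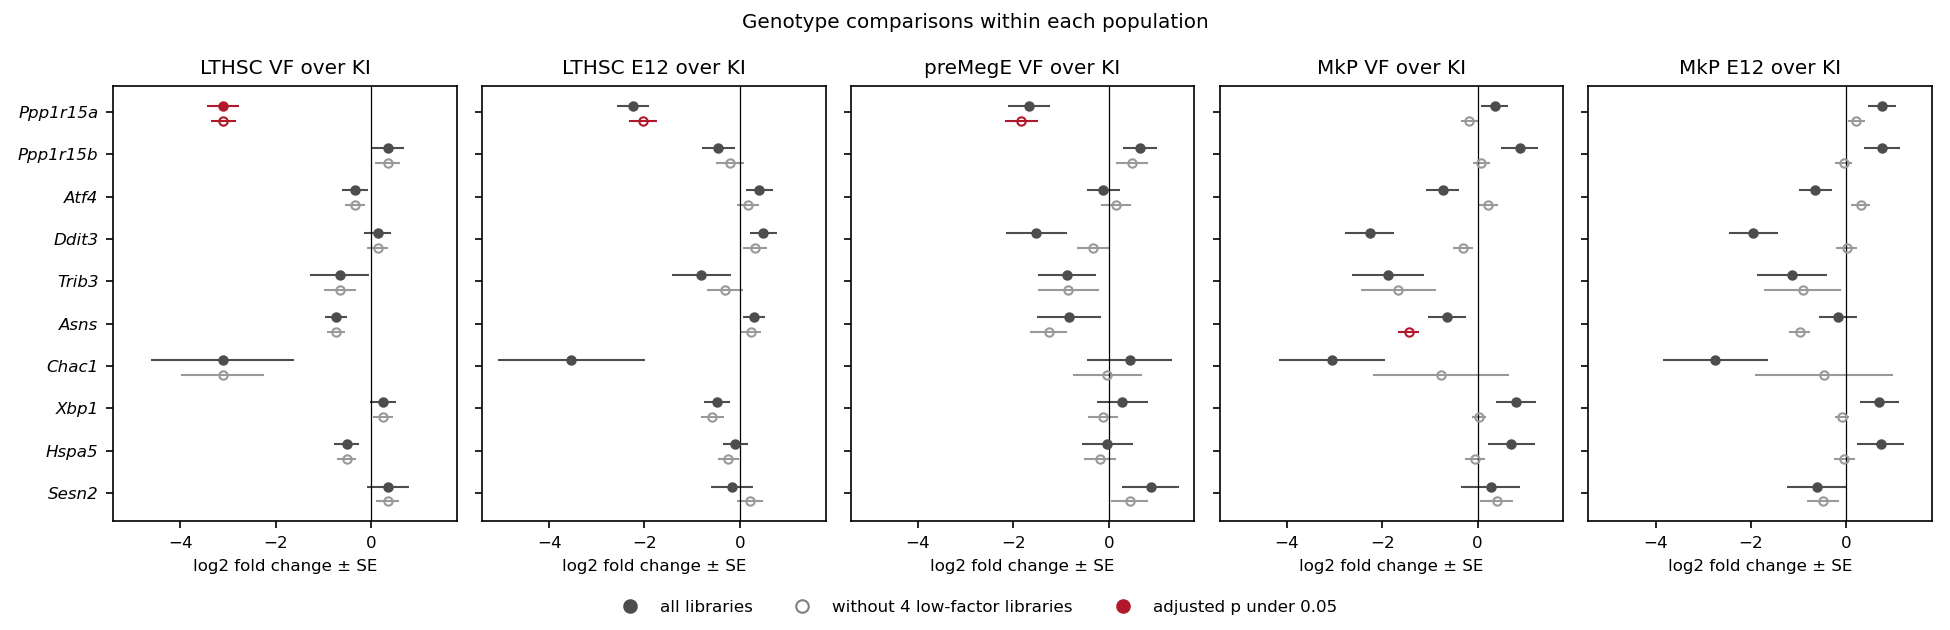
Log2 fold change with SE of each gene for VF and E12 against KI in each population, with all libraries (filled) and without the 4 low-factor libraries (open); red marks an adjusted p under 0.05. Ppp1r15a in VF against KI LTHSC is red in both fits, and in MkP many filled points move towards 0 when the low-factor libraries are left out. Chac1 in E12 against KI LTHSC is drawn with all libraries only, since both remaining E12 libraries hold 0 counts.

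**Figure D4:**
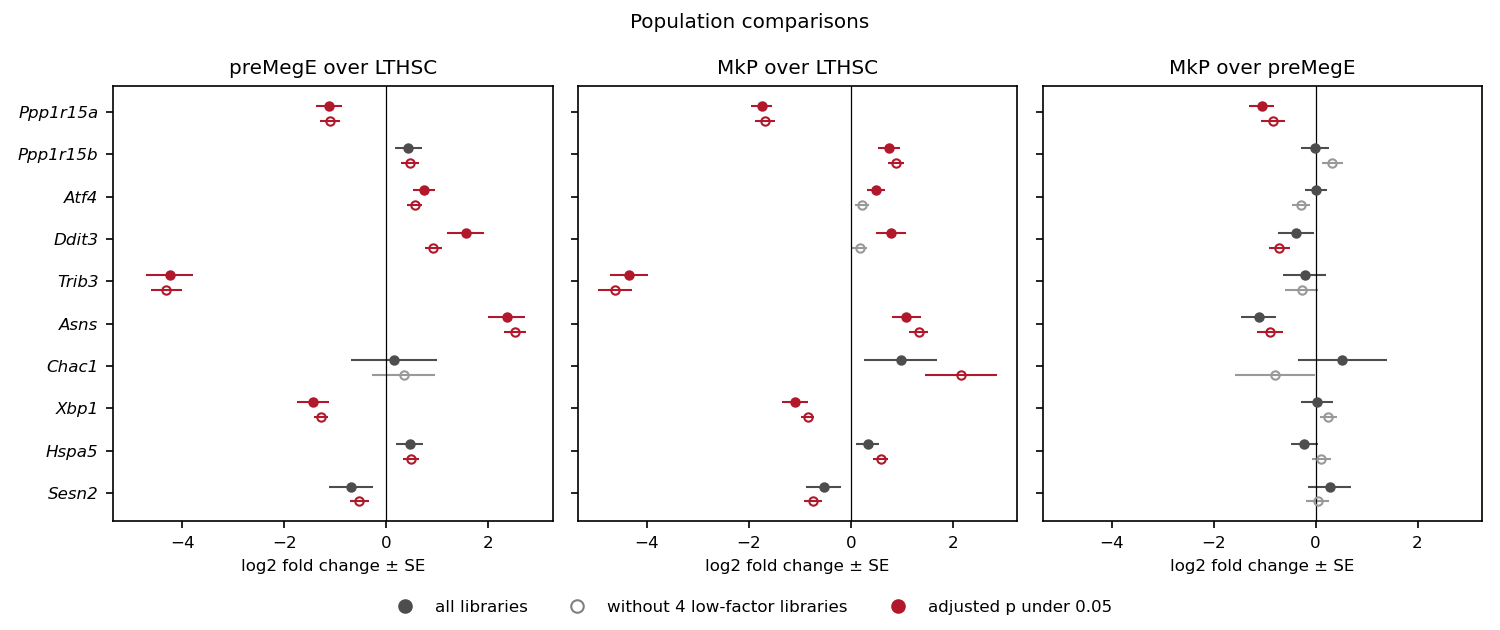
Log2 fold change with SE of each gene between populations, with all libraries (filled) and without the 4 low-factor libraries (open); red marks an adjusted p under 0.05. Trib3 lies near -4.25 in preMegE and -4.36 in MkP against LTHSC, and Asns lies to the right of 0 in both. The open Chac1 point in MkP against LTHSC rests in part on E12 LTHSC libraries with 0 counts.

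Other genes of the response were read from 5 lists. No gene of any of the 5 lists was called by edgeR in the 7 genotype comparisons with all libraries. Without the low-factor libraries, 1 of 32 targets of ATF4 and CHOP rose and, of 44 ATF6 and XBP1 targets, 1 rose and 4 fell in VF against KI LTHSC, where 2.03% of all genes were called. In MkP 1 of 19 eIF2 and kinase genes fell in VF against KI and 1 in E12 against KI, beside 1 and 2 of 33 targets of ATF4 and CHOP, where 0.414% and 0.684% of all genes were called. Among the 12 aminoacyl-tRNA synthetases that ATF4 controls, 10 rose and 0 fell in preMegE against LTHSC, with a median log2 fold change of 0.79, and 7 rose and 0 fell in MkP, with a median of 0.42. All 12 had a positive fold change in both. Aars rose by log2 1.13 in preMegE and 0.90 in MkP, and Gars by 0.88 and 0.62. Mars, Sars and Nars rose in preMegE by 1.10, 0.82 and 0.86, and Iars, Mars and Tars in MkP by 0.60, 0.60 and 0.42. Without the low-factor libraries 12 rose in preMegE and 8 in MkP, against 23.5% and 18.6% of all genes. They moved the way Asns did and Trib3 did not.

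Of 32 genes listed as other targets of ATF4 and CHOP, 9 rose and 4 fell in preMegE against LTHSC, beside 21.3% and 19.4% of all genes. In MkP 7 rose and 5 fell, beside 17% and 17.7%. Slc7a5, a leucine transporter subunit, rose by log2 1.44 in preMegE and 1.45 in MkP, and Mthfd2, a mitochondrial folate enzyme, by 2.04 and 1.32. Eif4ebp1, which restrains cap-dependent translation, rose in preMegE by 1.89, and the arginine transporter gene Slc7a1 rose in MkP by 1.17. Vldlr, a lipoprotein receptor gene, fell (log2 -1.93 in preMegE and -1.80 in MkP). So did Sesn1 (-1.30 and -1.39), a sestrin relative of Sesn2 that was placed in this list without a check that ATF4 or CHOP drives it. In MkP against preMegE 1 of the 32 rose, Cebpg, by log2 0.71.

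Of 19 genes for eIF2 kinases, eIF2 and its exchange factor, 8 rose and 1 fell in preMegE against LTHSC, and 3 rose and 1 fell in MkP. Eif2s2, a subunit of eIF2, rose by log2 1.88 in preMegE and 1.55 in MkP, and Eif2b3, a subunit of the exchange factor eIF2B, by 1.17 and 0.40. Eif2b4 and Eif2b1 rose in preMegE by 1.14 and 1.05, and Ppp1ca, the catalytic phosphatase subunit, rose in MkP by 0.76. Impact, an inhibitor of the kinase GCN2, fell (log2 -1.55 in preMegE and -1.01 in MkP). In MkP against preMegE Eif2b3 fell (log2 -0.63). Without the low-factor libraries 9 rose and 2 fell in preMegE, against 23.5% and 26.3% of all genes. In MkP 8 rose and 2 fell, against 18.6% and 20.6%.

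On the side of the endoplasmic reticulum, 16 of 44 targets of ATF6 and XBP1 rose and 3 fell in preMegE against LTHSC, and 13 rose and 5 fell in MkP, with a median of 0.23 in each. Sdf2l1, a chaperone partner, rose by log2 2.07 in preMegE and 1.66 in MkP. In preMegE Creld2, Sec61g and Fkbp2 rose by 1.08, 2.58 and 2.37 and Dnajb9, a co-chaperone of BiP, fell (log2 -1.56). In MkP the chaperone genes Hsp90b1 and Hyou1 rose by 0.72 and 1.10, Edem2 had a log2 fold change of -0.91, and Fkbp14 one of -4.24, with means of 0.921 CPM in MkP and 6.25 CPM in LTHSC. Among 11 sensors and processing factors 0 rose and 1 fell in preMegE, which was Mbtps2 (log2 -0.58), and in MkP Creb3l1 rose by 1.32 and Creb3 fell (log2 -0.98). In MkP against preMegE Creb3 and Fkbp14 fell (log2 -0.78 and -3.62). The share of all genes that rose was 21.3% in preMegE and 17% in MkP, and the share that fell 19.4% and 17.7%.

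**Figure D5:**
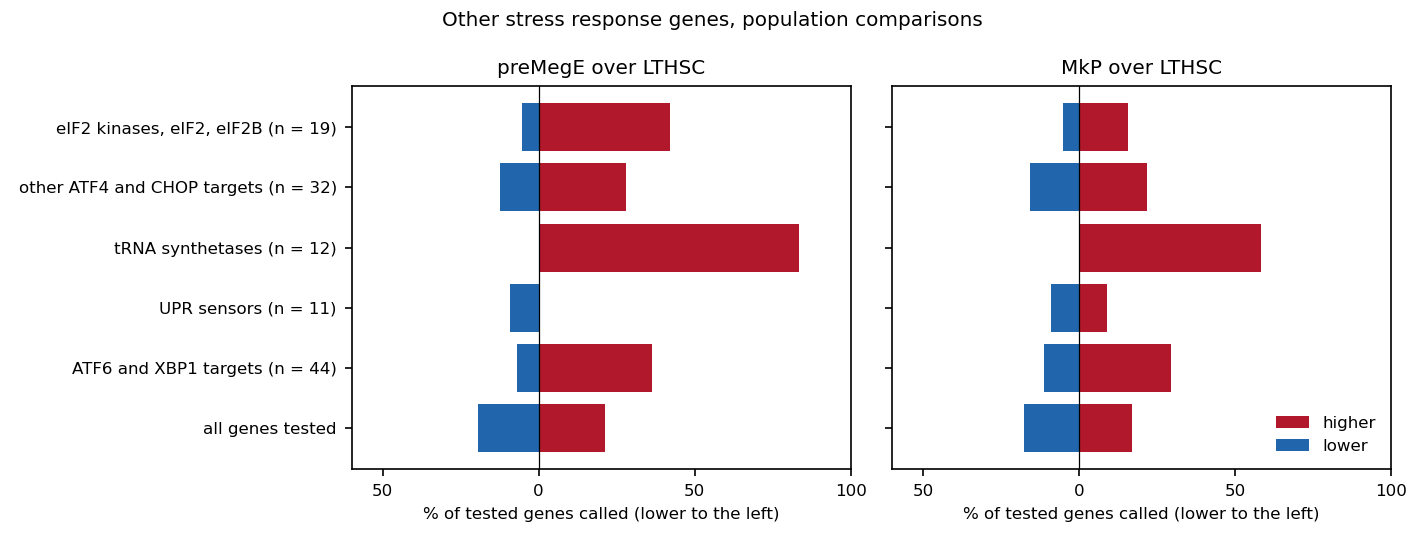
Share of tested genes that rose (red, to the right) or fell (blue, to the left) in preMegE and in MkP against LTHSC, for the 5 lists of other stress response genes and for all genes tested. The 12 tRNA synthetases have 10 and 7 genes to the right and 0 to the left, while all genes are split at 21.3% and 19.4% in preMegE.

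Across the 24 libraries, the genes whose log2 CPM followed a member most closely differed from member to member. These libraries share population, genotype and scaling, so the correlations are descriptions. For Ppp1r15a they were the immediate-early genes Dusp1 (Pearson r = 0.926), Egr1 (0.912) and Ier2 (0.896), and over the 20 libraries without low factors r was 0.970, 0.972 and 0.959. For Trib3 they were Robo4 (0.966), Vnn1 (0.955) and Zfp612 (0.953). For Asns they were Gfi1b (0.874), Prmt7 (0.857) and Eif2b3 (0.844), the eIF2B subunit gene named above. For Ddit3 they were Commd4 (0.965), Fcf1 (0.965) and Eif4ebp1 (0.961), and r was 0.842, 0.845 and 0.841 without the low-factor libraries. Ppp1r15b was close to Hspa9 (0.932) and Nptn, Atf4 to Snord49b (0.923), Timm44 and Rack1, Xbp1 to Ctsc (0.946), Cpq and Tspan3, and Hspa5 to Snx11 (0.873), Golt1b and Arpc5. Sesn2 was closest to Jade2 (0.914), Ak4 and Zdhhc9, whose r fell to 0.310 over 20 libraries, and Chac1 to Mid1 (0.668), Mical1 and Egfl8.

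Among the members, Atf4 and Ddit3 had r = 0.787 over the 24 libraries and 0.575 over 20, and Trib3 and Xbp1 had 0.603 and 0.822. Ddit3 and Asns had 0.216 over the 24 libraries and 0.784 over 20. Ppp1r15a and Ppp1r15b had -0.211 and -0.610. With the mean of each group removed, the 24 libraries gave 0.758 for Atf4 and Ddit3 and 0.145 for Trib3 and Xbp1. They gave -0.734 for Ddit3 and Asns and 0.716 for Ppp1r15a and Ppp1r15b, signs opposite to those above. These values include the low-factor libraries and were not computed without them. Ddit3 reached 287 CPM in those libraries and 67.3 CPM in the other 20. In MkP KI 5 and 6, Ppp1r15a was 46.6 and 33.8 CPM and Ppp1r15b 37.1 and 41.2 CPM. In MkP KI 4 they were 80.9 and 117 CPM. The part of the low-factor libraries was not tested. By population, averaged over genotypes, Trib3, Xbp1 and Ppp1r15a were higher in stem cells, and Asns, Atf4 and Ddit3 in preMegE.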

How the data were processed

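Smart-seq2 RNA libraries of 24 sorted samples (PicoPure extraction, per the labels' protocols) were analysed. The deposited values are the authors' raw read counts, 1 row per Entrez gene. The submitters' processing notes name mm10, the aligner STAR (version 2.7.0c) and the counter featureCounts of Subread (version 1.6.4), while annotation, strand setting and multimapping are not given in the sources used here. The deposited gene lengths served only to give levels per kilobase. Of 24454 genes, 24374 matched RefSeq genes of GRCm38.p6, the assembly of mm10. The 16 rows without a symbol held at most 0.0132% of a library and were left out. The 6 columns named MEP were taken as preMegE by genotype and number, and 0 value columns were unmapped. Without molecular identifiers, a count is a read and not a molecule.

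Samples were grouped by titles. Counts were fitted with edgeR 4.0.16 in R 4.3.3 (filterByExpr, TMM, robust quasi-likelihood F test, 2-sided, adjusted over all genes at 0.05). Genotype comparisons were fitted within a population, and population comparisons, averaged over shared genotypes, and differences of differences over all 24 libraries. SE is the fold change divided by the square root of F. Fold changes therefore use the TMM factors of their own fit. The steps were tested on simulated data. Alternatives were RLE scaling, no filter, DESeq2 1.42.0, limma voom 3.58.1, only the compared groups and the replicate number as a block. Each library of the compared groups was also left out in turn.

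The members, lists, tests and alternatives were chosen with earlier results of these data known. Named genes are all 10 members, per list and comparison up to 5 genes of smallest p with an adjusted p under 0.05, and the 3 genes most like each member by Pearson r of log2 CPM (prior count 2). A gene that this rule names is not reported here.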

Additional observations from a re-analysis of the deposited data

Results flagged for a closer look

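Ppp1r15a had genotype differences that were not the same in MkP and LTHSC. The VF difference from KI was log2 3.50 higher in MkP than in LTHSC, and the E12 difference from KI log2 3.06 higher, both past an adjusted p of 0.05 in edgeR's test of the difference. Both calls were lost without the 4 libraries of low scaling factor (adjusted p = 0.0607 and 0.309), and the E12 call in 9 of 12 fits that left out a single library. All 3 E12 libraries lay below all 3 KI libraries in LTHSC (log2 -2.25) and above them in MkP (log2 0.75), and neither of these 2 differences passed by itself. In the 2 MkP KI libraries with low scaling factors Ppp1r15a was 46.6 and 33.8 CPM, and in the other it was 80.9 CPM, still below the lowest E12 library at 93.0 CPM. The VF difference from KI in MkP was log2 -0.18 without the low-factor libraries.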

How the results depend on the processing

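Single libraries of the compared groups were left out in turn. The 6 calls of preMegE against LTHSC kept direction and threshold in every such fit. So did those of Ppp1r15a, Ppp1r15b, Trib3, Asns and Xbp1 in MkP against LTHSC. With RLE scaling Atf4 (log2 0.48) and Ddit3 (0.79) in MkP against LTHSC lost their calls, and with limma voom Ddit3 (0.68) did. The E12 difference of Ppp1r15a in MkP against LTHSC lost its call with no filter (log2 3.02) and with only the compared groups (2.98). The cause was not tested. Libraries hold at least 10357877 counts, but Chac1 had only 0 to 20 counts in E12 LTHSC.

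Counts of calls, members first and all genes second where both moved, were as follows. In VF against KI LTHSC all genes were 287 by DESeq2 and 293 without the low-factor libraries, and with only the compared groups 3 members and 933 genes. In E12 against KI LTHSC they were 1 and 21 with no filter, 1 and 465 by DESeq2, 1 member by voom, 1 and 18 without the low-factor libraries, and 2 genes with only the compared groups. In VF against E12 LTHSC they were 1 and 182 by DESeq2, with 9 genes under no filter, 1 with only the compared groups and 13 without the low-factor libraries. In VF against KI preMegE they were 1 and 32 without the low-factor libraries, with 0 genes by RLE, 9 under no filter, 69 by DESeq2 and 4 by voom. In VF against KI MkP they were 3 and 2560 by DESeq2 and 1 and 60 without the low-factor libraries. In E12 against KI MkP they were 1 and 1041 with no filter, 2 and 2838 by DESeq2, and 99 genes without the low-factor libraries. In VF against E12 MkP 8 genes were called by DESeq2, 12 with only the compared groups and 11 without the low-factor libraries. In MkP against preMegE they were 2 members by RLE, 2 and 1786 by DESeq2, 3 and 2708 without the low-factor libraries, and 644 genes with only the compared groups. For the VF difference in preMegE against LTHSC 11 genes were called by DESeq2, 4 with only the compared groups and 33 without the low-factor libraries. For the VF difference in MkP against LTHSC they were 4 genes with no filter, 345 by DESeq2, and 0 and 0 without the low-factor libraries. For the E12 difference they were 0 and 0 with no filter, with only the compared groups and without the low-factor libraries, 2 and 2082 by DESeq2, and 1 gene by voom.

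With each library of the compared groups left out in turn, members and all genes called ranged over 0 to 1 and 1 to 7 in VF against KI LTHSC. They ranged over 0 to 1 and 2 to 396 in E12 against KI LTHSC, and 0 to 2 and 1 to 305 in VF against E12 LTHSC. In VF against KI preMegE they ranged over 0 to 1 and 0 to 32. In MkP they ranged over 0 to 7 and 0 to 6732 for VF against KI and 0 to 7 and 0 to 6856 for E12 against KI, the upper values without MkP KI 4. In MkP against LTHSC they were 5 to 8 and 4461 to 6406, in MkP against preMegE 1 to 2 and 695 to 1912, for the VF difference in MkP against LTHSC 1 to 3 and 2 to 2614, and for the E12 difference 0 to 6 and 0 to 4530.

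The labels do not say that a number marks a shared animal, litter or day, so the numbers were not taken as pairs. Same-numbered libraries deviated together in some groups, with r = 0.256, 0.0538 and 0.216 for VF and KI preMegE. For VF and KI LTHSC r was -0.00685, 0.0109 and 0.0022. With the replicate number as a block, VF against KI LTHSC had 2 members and 704 genes called, VF against KI preMegE 10 genes, E12 against KI MkP 9 genes, MkP against LTHSC 3 members and 1870 genes, MkP against preMegE 0 members, and the VF difference in preMegE against LTHSC 8 genes. In that block fit, which holds VF and E12 pairs only, Ddit3 in MkP against LTHSC was log2 -0.0072, and Ppp1r15a in MkP against preMegE, over VF pairs only, was log2 0.049. No block could be fitted where fewer than 2 numbers are shared, as in E12 against KI and VF against E12 LTHSC, VF against KI and VF against E12 MkP, and both MkP differences of differences.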
